A study of Rattus norvegicus with 12 samples.

Results

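The Hox-cluster microRNAs of the miR-10 and miR-196 families were examined in small RNA libraries of rat gastric mucosa. They were taken as every mature miRNA in the deposited tables whose name, without its arm, is miR-10a, miR-10b, miR-196a, miR-196b or miR-196c, which gave 10 of the 649 miRNAs listed. The libraries fell into 3 groups of 4. The XLHZ group and the model group both drank water with 180 µg/ml of the carcinogen MNNG (N-methyl-N'-nitro-N-nitrosoguanidine) for 24 weeks. The protocol of the rat model, given alike for every sample, adds gavage with 2% sodium salicylate and a cycle of 2 fed days and 1 day of fasting. The regimen served as a rat model of chronic atrophic gastritis, in which glands of the stomach are lost. The XLHZ group in addition received Xianglianhuazhuo, a herbal formula, for 60 days. The normal group was untreated. The labels give neither strain, age nor sex, and do not say whether each library came from its own rat, so p-values measure the spread between these libraries. The libraries held 9094962 to 11556058 counts, and miR-143-3p, a smooth muscle miRNA, took 9.39% to 29.2% of them in tissue labelled as mucosa.

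Hox genes are arranged in clusters and are switched on in order along the head-to-tail axis, which gives each stretch of the gut its positional identity. The miR-10 genes lie near the Hox4 and Hox5 genes, toward the anterior end of the clusters, and the miR-196 genes lie near Hox9 and Hox10, toward the posterior end. Both families bind and repress Hox messenger RNAs, the best known case being repression of Hoxb8 by miR-196a in mouse embryos. miR-196 is often reported as raised in human gastrointestinal tumours, and posterior identity is one feature of intestinal metaplasia, in which gastric epithelium takes on intestinal traits.

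In the RefSeq annotation of the rat genome (GRCr8), the hairpin of miR-10a lies between Hoxb5 and Hoxb4 (chr10:81779709-81779818, + strand) and that of miR-10b within Hoxd4 (chr3:80035859-80035967, + strand). The hairpin of miR-196a lies between Hoxc10 and Hoxc9 (chr7:135988876-135988985, + strand), that of miR-196b between Hoxa9 and Hoxa10 (chr4:82661101-82661185, - strand) and that of miR-196c between Hoxb13 and Hoxb9 (chr10:81727551-81727630, + strand). These are RefSeq's positions, while the build behind the counts was not given in the sources used here. RefSeq held the mature sequence of 9 of the 10 miRNAs, and the guide strands are shown because single bases separate the family members. Bases 2 to 8, the seed that pairs with target messenger RNAs, are in capitals.
miR-10a-5p: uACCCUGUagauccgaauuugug
miR-10b-5p: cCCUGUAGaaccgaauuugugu
miR-196a-5p: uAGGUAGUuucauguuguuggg
miR-196b-5p: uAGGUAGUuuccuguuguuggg
miR-196c-5p: uAGGUAGUuucguguuguuggg
let-7a-5p: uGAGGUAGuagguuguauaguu

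The 3 miR-196 guides share one seed, AGGUAGU, and no other rat miRNA in the RefSeq table has it. Counted from the 5′ end of miR-196a-5p, they differ from it by a single base each, A12C in miR-196b-5p and A12G in miR-196c-5p. The let-7 seed, shown with let-7a-5p, holds the 6 letters AGGUAG of the miR-196 seed, shifted by one position. miR-10b-5p as annotated starts 2 bases later than miR-10a-5p, and over the 21 bases in common it differs by U12A, counted from the 5′ end of miR-10a-5p. The annotated seeds of miR-10a-5p and miR-10b-5p are therefore not the same, although the 2 bases before the annotated miR-10b-5p in its hairpin, UA, are the first 2 of miR-10a-5p. Reads of such near-identical members can be assigned to one another, and the mismatch rule of the counting was not given, so single values within each family are uncertain to that extent.

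The abundance of the 10 miRNAs fell into 3 ranges. miR-10a-5p (rno-miR-10a-5p in the files), the guide strand of the HoxB miR-10 gene, was present at 47970 to 127604 counts per library and ranked 32nd by mean level. Its partner strand miR-10a-3p had 495 to 1263 counts. Sparse members were miR-10b-3p with 17 to 40 counts, miR-196b-5p with 5 to 44, miR-196a-5p (rno-miR-196a-5p) with 1 to 24 and miR-10b-5p (rno-miR-10b-5p) with 0 to 4. The arms miR-196a-3p, miR-196b-3p, miR-196c-5p and miR-196c-3p had 1 count each over all 12 libraries together. The further Hox-cluster miRNA miR-615, whose hairpin overlaps Hoxc5 and Hoxc6, had 1 count in XLHZ library 2, 1 in normal library 3 and 0 elsewhere. As counted, the guide of the HoxB miR-10a was the single abundant one among the Hox-cluster miRNAs listed. The level of miR-10b-5p in the tissue is uncertain, for the reason given with its counts below.

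miR-196a-5p, the posterior HoxC guide, was at a single count in each normal library and higher in every library of the model group. It had 22, 24, 12 and 8 counts in model libraries 1 to 4, against 1 count in each of the 4 normal libraries. In CPM, the count scaled to a common library total, it averaged 1.55 ± 0.762 in the model and 0.0926 ± 0.00580 in normal mucosa (mean ± SD, n = 4 each, here and throughout). With 1 count in each normal library, the normal SD comes from the library totals alone. It leaves out counting error and does not measure the precision of the normal level. Each model library lay above each normal library, a pattern that 1.41% of the 638 miRNAs detected in these groups showed in this direction. Of the 70 ways to assign these libraries to the groups, 1 gives the pattern, so that share is near the one from chance. The separation by itself is therefore not read as a result about miR-196a-5p. The summed counts, 66 in the model and 4 in normal mucosa, give a ratio of 16.6 on library totals, with an exact 95% interval of 6.19 to 62.8 that covers counting error only.

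The deposited values of miR-196a-5p fell just below the filter that removed sparse rows from the test, which asked for 0.925 CPM (about 10 counts) in 4 libraries and was met in 3. It was therefore not among the 403 miRNAs tested, of which 0.248% passed. With no count filter miR-196a-5p was among the 3 of 639 miRNAs (0.469%) that passed in edgeR's quasi-likelihood test, at a log2 fold change of 4.06 (adjusted p = 0.00666 by Benjamini-Hochberg over all 639, SE 0.60). The row passed with no filter under DESeq2 (log2 fold change 4.24, adjusted p = 0.000524) and limma-trend (2.62, adjusted p = 0.0107). It also passed with each library left out in turn, with adjusted p between 0.000986 and 0.0476, and without model libraries 2 and 3 (3.84, adjusted p = 0.0166). An exact two-sided permutation test of the mean CPM gave p = 0.0286, the smallest that 4 libraries against 4 can give. Full separation of the groups fixes that p, so it restates the separation and adds no support. The test without a filter and the permutation test were chosen after the counts had been seen.

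In a bulk sample, more cells of a kind and more RNA per cell cannot be told apart. Smooth muscle content, read from miR-143 and miR-145 with both arms each, differed among the same libraries. The summed level of this list, in CPM scaled by TMM factors (edgeR's correction for composition), ranged from 145151 to 403505 in the model and from 133246 to 219379 in normal mucosa, and 0 of its 4 arms passed in edgeR, with a median log2 fold change of 0.62 against -0.0072 over all 403 miRNAs tested. With a score of these 4 arms added to the fit the log2 fold change of miR-196a-5p was 3.60 and its adjusted p 0.0606, so the call ended. The part of muscle content in the result was not tested further.

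Intestinal-type miRNAs, which mark the epithelium of the intestine and rise in intestinal metaplasia, were measured as a second reference. Of miR-192, miR-194 and miR-215, 4 of 5 arms were tested. In model against normal mucosa 0 passed in edgeR, also at an unadjusted p under 0.05, with a median log2 fold change of 0.22 and 4 of 4 positive. Their summed level was 6811 to 22995 CPM in the model and 9071 to 15362 CPM in normal mucosa, so the groups overlapped. The lowest and the highest of the 12 values were both in the model group, in libraries 2 and 3. The mean of the sum was 14060 CPM in the model and 12029 CPM in normal mucosa. Without model library 3, a step added after seeing the data, the model mean was 11082 CPM, below that of normal mucosa. That mean kept the lowest library, model library 2 at 6811 CPM. Model libraries 1 and 4 had 12434 and 14002 CPM, both above the normal mean. The difference between the means thus turned sign with library 3 left out and library 2 kept. miR-215 had 12.5 ± 12.7 CPM in the model and 6.90 ± 1.12 CPM in normal mucosa (adjusted p = 0.669, edgeR), and 6.23 CPM in the model without library 3. Model libraries 1, 2 and 4 had 8.50, 2.84 and 7.35 CPM of it. In XLHZ mucosa miR-215 measured 10.6 ± 2.17 CPM, a log2 fold change of 0.59 against normal mucosa (adjusted p = 0.470, SE 0.21, edgeR), and it was the 1 arm of the 4 with an unadjusted p under 0.05 in that comparison.

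**Figure D1:**
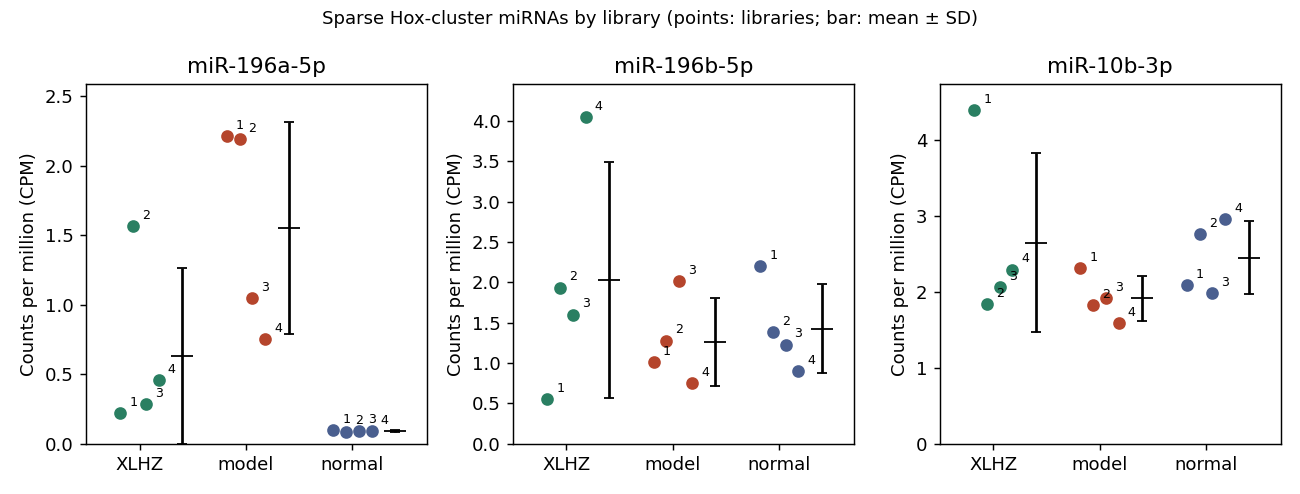
Levels of miR-196a-5p, miR-196b-5p and miR-10b-3p in CPM on the vertical axes, by group on the horizontal axes; each point is a library with its replicate number, and the bar beside each group is the mean ± SD of 4 libraries. For miR-196a-5p every model library lies above every normal library and XLHZ library 2 lies among the model libraries, while the groups overlap for the other 2 miRNAs.

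miR-196b-5p, the HoxA guide with the same seed, did not pass in any of the 3 comparisons. It had 10, 14, 23 and 8 counts in model libraries 1 to 4 and 22, 16, 13 and 10 counts in normal libraries 1 to 4. The groups overlapped, with a log2 fold change of -0.0011 (adjusted p = 0.998, SE 0.45, edgeR), whose sign turned with no count filter, at 0.0087, and with DESeq2, at 0.034. Its ratio of summed counts was 0.908, with an exact 95% interval of 0.619 to 1.33 for counting error. miR-196c-5p, the HoxB guide, had 1 count in model library 3 and 0 elsewhere.

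The balance between both detected miR-196 guides does not depend on library scaling. miR-196a-5p made up 28.6%, 44.7%, 15% and 10.2% of the summed miR-196a-5p and miR-196b-5p counts in XLHZ libraries 1 to 4. Its share was 68.8%, 63.2%, 34.3% and 50.0% in model libraries 1 to 4, against 4.35%, 5.88%, 7.14% and 9.09% in normal libraries 1 to 4. All XLHZ and model shares lay above all normal shares, and XLHZ library 2 lay above model library 3. The intervals of XLHZ library 4 (3.40% to 22.2%) and normal library 4 (0.230% to 41.3%) overlapped widely. How often the shares of other miRNA pairs separate was not computed. The shares use the miR-196a-5p counts given above, so they add no separate support. They also depend on miR-196b-5p, which had 44 counts in XLHZ library 4. These shares rest on 7 to 49 counts per library, and the exact 95% binomial intervals of single libraries are wide.

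**Figure D2:**
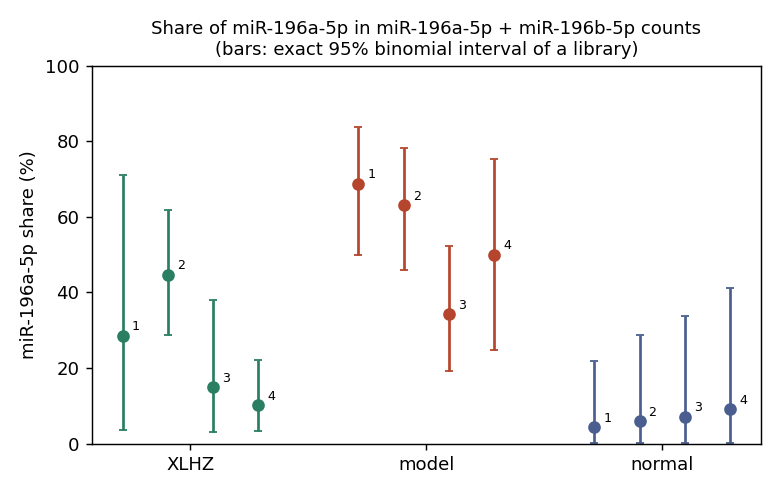
Share of miR-196a-5p in the summed counts of miR-196a-5p and miR-196b-5p (percent, vertical axis) in each library, grouped as XLHZ, model and normal on the horizontal axis; bars are exact 95% binomial intervals for counting error in that library. The XLHZ shares run from 10.2% to 44.7%, the model shares from 34.3% to 68.8% and the normal shares from 4.35% to 9.09%.

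The comparison of XLHZ with model mucosa addressed whether levels in exposed mucosa differ with the formula. miR-196a-5p had 2, 17, 3 and 5 counts in XLHZ libraries 1 to 4, against 22, 24, 12 and 8 in model libraries 1 to 4. XLHZ libraries 1, 3 and 4 were below every model library, and XLHZ library 2 lay between model libraries, so the groups overlapped. Here the row passed the filter, and its log2 fold change was -1.41 (adjusted p = 0.729, SE 0.68, edgeR), which did not pass. The exact two-sided permutation test of mean CPM gave p = 0.143. The summed counts were 27 in XLHZ and 66 in model mucosa, a ratio of 0.424 with an exact 95% interval of 0.260 to 0.673. This interval covers counting error only, not the spread between libraries. Without XLHZ library 2 the log2 fold change was -2.45, with an unadjusted p of 0.00395 and an adjusted p of 0.548 in edgeR. That library is named because its value stood apart from its group. With it left out, model libraries alone met the count filter, so this fit is given as a value and adds no support. With the smooth muscle score in the fit it was -0.77 (adjusted p = 0.998). In this comparison 0.249% of the 402 miRNAs tested passed in each of edgeR, limma-trend and DESeq2 (0.158% of 632 in edgeR with no filter), and 0 of the 5 tested Hox-cluster miRNAs did in edgeR, limma-trend or DESeq2. At an unadjusted p under 0.05 there were 0 of the 5 in edgeR and 1, miR-196a-5p, in each of the other tools.

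XLHZ mucosa was also set against normal mucosa, with which it shares no library, although the model libraries are shared by both comparisons above. miR-196a-5p averaged 0.632 ± 0.631 CPM in XLHZ and 0.0926 ± 0.00580 CPM in normal mucosa, where the SD again comes from the library totals alone. Every XLHZ library was above every normal library, as was the case for 3.94% of the 634 miRNAs detected in these groups. The exact two-sided permutation p for the mean CPM was 0.0286, the smallest possible, which this separation fixes. The summed counts were 27 and 4, a ratio of 7.05 with an exact 95% interval of 2.46 to 27.7. The row was below the filter, and with no filter its log2 fold change was 2.62 (adjusted p = 0.398, SE 0.82, edgeR over 634 miRNAs, of which 1.1% passed), so it did not pass. Without XLHZ library 2, which held 17 of the 27 counts, it was 1.63 (adjusted p = 0.574). miR-196b-5p had 5, 21, 17 and 44 counts in XLHZ libraries 1 to 4, a log2 fold change of 0.48 both against model mucosa (adjusted p = 0.824, SE 0.59) and against normal mucosa (adjusted p = 0.764, SE 0.54, edgeR). Its ratio of summed counts was 1.64 against model mucosa (exact 95% interval 1.16 to 2.34) and 1.49 against normal mucosa (1.06 to 2.10). These intervals cover counting error only, and XLHZ library 4 held 44 of the 87 XLHZ counts.

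miR-10a-5p, the abundant HoxB guide, did not pass in any of the 3 comparisons, and its level varied more among exposed than among normal libraries. On the TMM-scaled CPM scale it measured 4639, 8041, 6010 and 5500 in XLHZ libraries 1 to 4, 7785, 13945, 8302 and 5250 in model libraries 1 to 4, and 7496, 7284, 6217 and 6243 in normal libraries 1 to 4. Model library 2 was the highest of the 12 and XLHZ library 1 the lowest, and all 3 groups overlapped. The group means were 6047 ± 1444 CPM in XLHZ, 8821 ± 3667 CPM in model and 6810 ± 675 CPM in normal mucosa.

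For model against normal mucosa the log2 fold change of miR-10a-5p was 0.37 (adjusted p = 0.662, SE 0.26, edgeR). For XLHZ against model mucosa it was -0.56 (adjusted p = 0.729, SE 0.29), and for XLHZ against normal mucosa -0.20 (adjusted p = 0.730, SE 0.16). Model library 2 carried much of the first 2 values: without it they were 0.062 (adjusted p = 0.933) and -0.24 (adjusted p = 0.812). Of the 4 Hox-cluster miRNAs tested against normal mucosa, 0 passed in the model and 0 in XLHZ by edgeR with the filter, limma-trend or DESeq2, each also at an unadjusted p under 0.05. The share of all tested miRNAs that passed was 0.248% in edgeR and limma-trend and 1.74% in DESeq2 for the model, and 1.5% in edgeR and limma-trend and 1.75% in DESeq2 for XLHZ.

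The partner strand miR-10a-3p moved together with the guide. It measured 47.9, 84.2, 60.4 and 54.9 CPM in XLHZ libraries 1 to 4, 75.7, 138, 88.5 and 51.6 CPM in model libraries 1 to 4, and 75.0, 83.0, 66.6 and 67.7 CPM in normal libraries 1 to 4. Its fold changes had the sign of those of the guide, at 0.27 for model against normal, -0.53 for XLHZ against model and -0.27 for XLHZ against normal mucosa on the log2 scale (adjusted p = 0.799, 0.729 and 0.667 in that order, edgeR). The guide outnumbered the partner 95.5 to 100.2 times in XLHZ, 93.8 to 102.8 times in model and 87.7 to 100.0 times in normal libraries. The arm ratio thus varied far less than the levels.

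**Figure D3:**
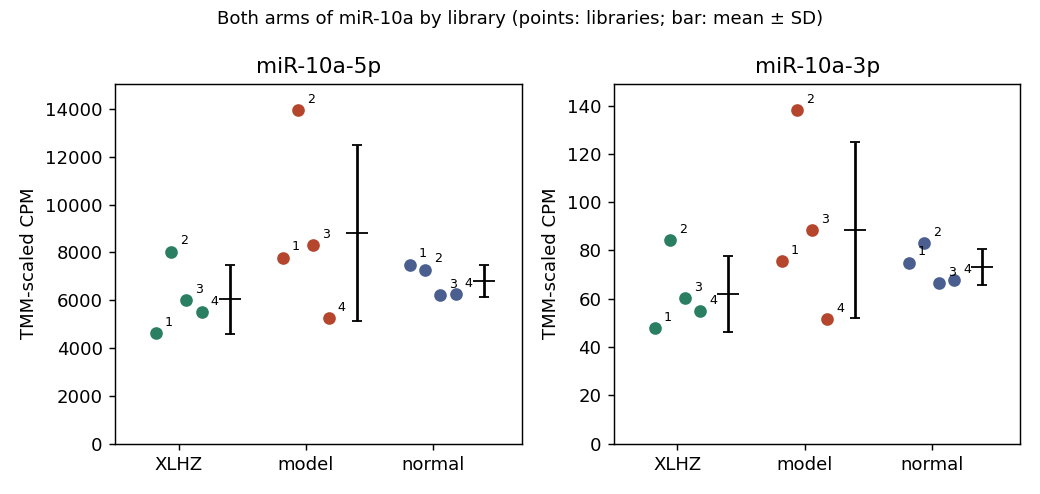
TMM-scaled CPM of miR-10a-5p and miR-10a-3p (vertical axes) by group (horizontal axes); each point is a library with its replicate number, and the bar beside each group is the mean ± SD of 4 libraries. Model library 2 is the highest for both arms, at 13945 and 138 CPM, and the 3 groups overlap.

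The arms of miR-10b, the HoxD gene, stood the other way round. miR-10b-3p had 40, 20, 22 and 25 counts in XLHZ libraries 1 to 4, 23, 20, 22 and 17 in model libraries 1 to 4, and 21, 32, 21 and 33 in normal libraries 1 to 4. miR-10b-5p, annotated as the guide, had 2 counts in each XLHZ library, 1, 0, 3 and 1 in model libraries 1 to 4, and 3, 1, 4 and 2 in normal libraries 1 to 4. The partner strand exceeded the annotated guide in all 12 libraries, whereas in miR-10a the guide exceeded the partner. Whether reads of miR-10b-5p were counted under miR-10a-5p, which differs from it by the offset and the single base shown above, was not tested. The level of miR-10b-5p is thus uncertain, and no fold is given for it.

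miR-10b-3p did not pass in any comparison. Its log2 fold change was -0.22 for model against normal (adjusted p = 0.826, SE 0.27), 0.25 for XLHZ against model (adjusted p = 0.824, SE 0.30) and 0.021 for XLHZ against normal mucosa (adjusted p = 0.990, SE 0.29, edgeR). The log2 ratio of miR-10a-5p to miR-10b-5p could be formed for XLHZ against normal mucosa alone, because model library 2 had 0 counts of miR-10b-5p. It differed by -0.089 (exact two-sided permutation p = 0.857), on 1 to 4 counts per library.

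**Figure D4:**
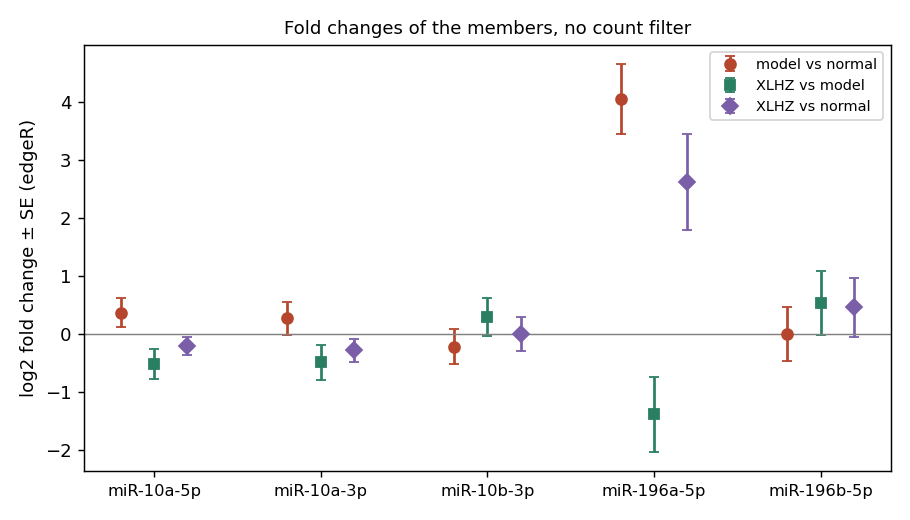
Log2 fold changes with standard errors (vertical axis, edgeR with no count filter) of 5 Hox-cluster miRNAs (horizontal axis) in the 3 comparisons, marked by shape and colour. miR-196a-5p in model against normal mucosa, at 4.06, is the value that passed; those of miR-10a-5p, miR-10a-3p and miR-10b-3p lie between -0.51 and 0.37.

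Marker lists of smooth muscle, neurons and striated muscle varied among the same libraries as miR-10a-5p. The summed level of the smooth muscle list was 97611, 277213, 199151 and 138490 CPM in XLHZ libraries 1 to 4 and 215562, 403505, 356150 and 145151 CPM in model libraries 1 to 4. In normal libraries 1 to 4 it was 219379, 211138, 162485 and 133246 CPM. The lowest and the highest library of miR-10a-5p, XLHZ library 1 and model library 2, were also the lowest and the highest of this list. Model library 3 was second for both on this TMM scale. The neuron list had the same order at these places, with 807 CPM in XLHZ library 1, 1702 CPM in model library 2 and 1463 CPM in model library 3. The striated muscle list was also lowest in XLHZ library 1, at 4650 CPM, and highest in model libraries 3 and 2, at 24459 and 22857 CPM. Not all marker lists had this order: the epithelial miR-200 family and the endothelial list were lowest in model library 2, at 54147 and 18191 CPM. When the smooth muscle score was added to the fit, the log2 fold change of miR-10a-5p was -0.074 for model against normal mucosa, the opposite sign (adjusted p = 0.918), and -0.080 for XLHZ against model mucosa (adjusted p = 0.998). Without model libraries 2 and 3, which had the highest muscle levels, it was -0.039 for model against normal mucosa (adjusted p = 0.942). The part of muscle content in these values was not tested.

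**Figure D5:**
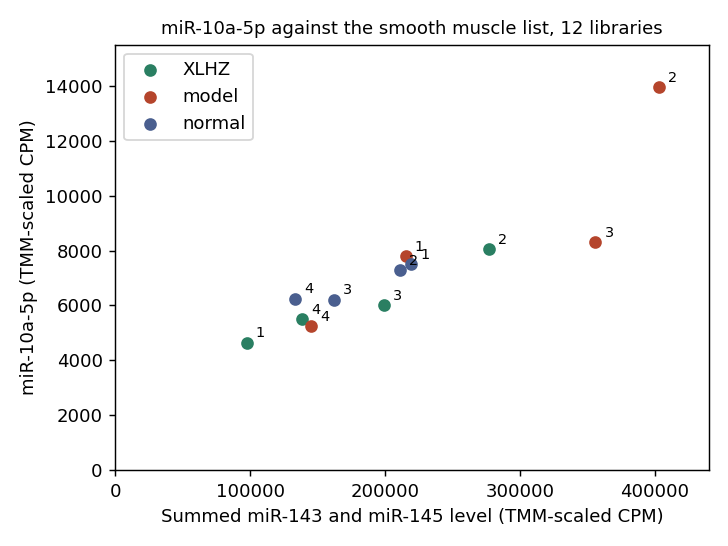
TMM-scaled CPM of miR-10a-5p (vertical axis) against the summed smooth muscle level, miR-143 plus miR-145, in TMM-scaled CPM (horizontal axis); each point is a library, coloured by group and marked with its replicate number. XLHZ library 1 is lowest and model library 2 highest on both axes.

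The miRNAs whose level was most like that of miR-10a-5p were sought among 281 others with a mean of at least 10 CPM, by Pearson's correlation of log2 CPM over the 12 libraries. miR-10a-3p came first (r = 0.986), followed by miR-125b-5p (0.939), miR-100-5p (0.932), miR-9a-5p (0.925) and miR-138-5p (0.921). Spearman's rho was 0.979, 0.881, 0.930, 0.818 and 0.846 in the same order. Without the 2 libraries farthest from the median, model 2 and XLHZ 1, r was 0.964, 0.886, 0.876, 0.804 and 0.677. All points share the same libraries and scaling, and the 5 were picked for the highest r, so these values are a description. miR-9a-5p is a neuronal miRNA, and miR-100-5p belongs to the same wider family as miR-10a.

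The same search for miR-196a-5p gave miR-139-5p (r = 0.826, rho = 0.853), miR-338-3p (0.774, 0.755), miR-9a-3p (0.768, 0.727), miR-29c-5p (0.757, 0.727) and miR-204-5p (0.735, 0.846) among 282 others. Without model libraries 1 and 2, r was 0.853, 0.719, 0.669, 0.674 and 0.773 in that order. The groups alone set part of these values, since miR-196a-5p was at 1 count in each normal library. After subtraction of the group means r was 0.660, 0.592, 0.748, 0.499 and 0.316.

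The relatives of miR-10 outside the Hox clusters are miR-99a, miR-99b and miR-100. Of their 6 arms 5 were tested, and 0 passed in any of the 3 comparisons in edgeR. At an unadjusted p under 0.05 there were 0, 1 and 1 in model against normal, XLHZ against model and XLHZ against normal mucosa. Their median log2 fold changes in that order were 0.029, -0.24 and -0.22, with medians over all miRNAs tested of -0.0072, 0.0057 and -0.0040. The guide of miR-100 is printed for comparison with that of miR-10a, with its seed in capitals; both seeds open with ACCC and then differ.
miR-100-5p: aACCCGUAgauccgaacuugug
miR-100-5p measured 436 ± 107 CPM in XLHZ, 773 ± 350 CPM in model and 578 ± 88.9 CPM in normal mucosa, with log2 fold changes of 0.41 for model against normal (adjusted p = 0.685) and -0.84 for XLHZ against model mucosa (adjusted p = 0.729, edgeR). miR-99a-5p, the most abundant of the relatives, measured 5167 ± 518, 5249 ± 1181 and 6025 ± 736 CPM in XLHZ, model and normal mucosa. Of the 3 tested arms of miR-125a and miR-125b, which are transcribed with these relatives, 0 passed in any comparison, with 0, 0 and 1 at an unadjusted p under 0.05, and miR-125b-5p measured 23472 CPM in XLHZ, 32501 CPM in model and 27781 CPM in normal mucosa.

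The let-7 guides and miR-98-5p, the set whose seed is close to that of miR-196, were measured beside miR-196a-5p. All 9 were tested and 0 passed in edgeR in any comparison, with 1, 0 and 2 at an unadjusted p under 0.05 in model against normal, XLHZ against model and XLHZ against normal mucosa. Their log2 fold changes for model against normal mucosa ran from -0.30 to 0.083. Summed over the set, the level was 195835 ± 3658 CPM in XLHZ, 198178 ± 7160 CPM in model and 208239 ± 6438 CPM in normal mucosa.

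Over the 11 lists of marker miRNAs for the cell types that gastric tissue can hold, 57 arms were tested. In edgeR 0 passed in model against normal mucosa, 0 in XLHZ against model mucosa and 1, the erythroid miR-144-5p, in XLHZ against normal mucosa. In model against normal mucosa the median log2 fold change was 0.90 for striated muscle, 0.61 for neurons, -0.029 for the epithelial miR-200 family and -0.40 for gastric and endocrine epithelium. At an unadjusted p under 0.05 there were 5 of 7 striated muscle arms, 2 of 7 neuronal arms, 0 of 9 arms of the miR-200 family and 2 of 4 gastric and endocrine arms. The median was -0.58 for squamous epithelium, 0.016 for fibroblasts, -0.087 for endothelium, -0.25 for leukocytes and 0.14 for erythroid cells, with an unadjusted p under 0.05 for 1 of 5 squamous and 1 of 6 leukocyte arms and 0 of the others. In XLHZ against model mucosa an unadjusted p under 0.05 was found for 3 of 7 neuronal, 1 of 7 striated muscle and 1 of 4 erythroid arms. The epithelial miR-200 family was present in all groups, at 73136 to 85171 CPM in XLHZ, 54147 to 85725 CPM in model and 68204 to 80518 CPM in normal libraries.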

How the data were processed

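The authors deposited 2 tables, of normal and model and of model and XLHZ libraries, with raw counts per mature miRNA and CPM columns, per the file headers. Per the labels' protocols, libraries were made from total RNA with a QIAseq miRNA kit for Illumina sequencing. Bowtie and DESeq are named per the submitters' processing notes, without version. Build, miRNA release, mismatch rule and use of molecular identifiers were not given in the sources used here. Each deposited CPM equalled count over column total within 5.0e-05.

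Tables were joined over 648 miRNAs. Their model counts were the same except for miR-20b-3p, which was left out of the joined table. Groups came from sample titles and columns from labelled descriptions. The main test, on the 8 libraries of a comparison, was edgeR 4.0.16's quasi-likelihood test in R 4.3.3 (TMM factors; filterByExpr, minimum count 10). A miRNA passed at a Benjamini-Hochberg adjusted p under 0.05 over the whole table. An SE was derived from the fold change and its F statistic, as their log2 size over root F. Values given as levels are CPM scaled by TMM over 12 libraries; for sparse miRNAs they are CPM on library totals. Alternatives were RLE, upper-quartile and no factors, other filters, DESeq2 1.42.0, limma-trend (limma 3.58.1), all 12 libraries in 1 fit, a replicate block, each library left out, library sizes without the 5 most abundant miRNAs, a smooth muscle covariate and leaving out model libraries 2 and 3. Fits without a count filter for miR-196a-5p, its permutation tests and the intestinal-type means without model library 3 were added after seeing the counts. The procedure was tested on simulated data that left out the sparsest miRNAs, which the fits without a count filter include. Named miRNAs are all those of the rule, the 5 most alike to miR-10a-5p and to miR-196a-5p, and members of marker and relative lists that passed or had the highest mean; miR-100-5p, miR-215, miR-125b-5p and miR-615 are named as relatives or references. No likeness is given for miR-10b-5p, which had 0 to 4 counts. The miRNAs, lists and rules were chosen with earlier results of these data known. Intervals cover counting error only.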

Additional observations from a re-analysis of the deposited data

Results flagged for a closer look

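Among 18 sets of 4 libraries examined (6 Hox-cluster miRNAs in 3 groups), 2 held a library far from the other 3 of its group. For Gaussian values chance alone marks about 1 set in 20, a rate that sets of very low counts need not follow. miR-196a-5p measured 1.65 TMM-scaled CPM (17 counts) in XLHZ library 2, against 0.193 to 0.424 CPM in the other XLHZ libraries. miR-10b-3p measured 3.87 TMM-scaled CPM (40 counts) in XLHZ library 1, against 1.94 to 2.12 CPM in the other XLHZ libraries.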

How the results depend on the processing

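For model against normal mucosa, miR-196a-5p was below the count filter (log2 ratio of summed counts over summed library totals 4.06, no test) and passed where it entered with no filter (4.06), with all 12 libraries in 1 fit (4.07, adjusted p = 0.0213) and with model library 4 left out (adjusted p = 0.00551). It entered without any 1 normal library too, at an adjusted p of 0.0501 to 0.0712, and did not pass. Wherever it entered with the filter, the exposed libraries alone met it, so those fits are given as values and add no support. Over these left-out libraries it ran from 4.04 to 4.33. Its mean CPM differed by 1.46 (exact permutation p = 0.0286), and that of XLHZ against normal mucosa by 0.539 (exact permutation p = 0.0286). Both p-values restate the full separation of the groups. With no filter it kept its call under 17 of 18 alternatives, from 2.62 to 4.35, and lost it with the smooth muscle covariate (3.60).

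miR-10a-5p turned sign for model against normal mucosa with the smooth muscle covariate (-0.074) and without model libraries 2 and 3 (-0.039); the cause was not tested. It did not pass under any of its 20, 20 and 19 alternatives, nor did miR-196a-5p for XLHZ against model mucosa under 20. The miR-10a-5p to miR-10b-5p ratio ran from -0.41 to 0.34 with 1 library left out.

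The number of miRNAs that passed for model against normal mucosa was 1, but 2 with upper-quartile factors, library totals or at least 50 counts in 4 libraries, 3 with no filter or with the Hox-cluster rows kept, 7 with DESeq2, 4 with all 12 libraries and 1 to 4 with a library left out (4 without model library 4). For XLHZ against model mucosa it was 1, but 0 with the covariate and without model libraries 2 and 3, and 0 to 1 with a library left out (0 without XLHZ library 1 or 4 or any 1 model library). For XLHZ against normal mucosa it was 6, but 7 with no filter or DESeq2, 5 with at least 50 counts in 4 libraries or a replicate block, and 2 with all 12 libraries. With a library left out it was 4 to 7.

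Correlations of the deviations of same-numbered libraries ran from -0.17 to 0.46 for XLHZ and model, from -0.098 to 0.18 for XLHZ and normal and from -0.31 to 0.28 for model and normal mucosa. Numbers 2 and 3 were positive in all 3 comparisons and numbers 1 and 4 were not, so the numbers were not taken to pair the libraries. With a replicate block the log2 fold change of miR-196a-5p was 3.98 with no filter (adjusted p = 0.00751), and no call on it or on miR-10a-5p changed. At 2 to 24 counts per library, the summed counts of miR-196a-5p in XLHZ and model mucosa differed beyond counting error. The difference did not pass in the tests that take in the spread between libraries.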
